A study of Mus musculus with 9 samples.

Results

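Transcripts of 10 genes of the PDGF, FGF and IGF receptor tyrosine kinase pathways were examined in whole osteosarcoma tumors of genetically engineered mice. The genes were chosen by name and are the receptors Pdgfra, Pdgfrb, Fgfr1, Fgfr2, Fgfr3 and Igf1r and the ligands Pdgfa, Pdgfb, Pdgfc and Igf1, which make 10 of the 55367 genes in the count table. Growth factors of these families bind receptors at the cell surface that pair up, phosphorylate each other and recruit adaptor proteins, and the signal runs on through the RAS-ERK and PI3K-AKT cascades. PDGF drives the growth and movement of mesenchymal cells, including osteoprogenitors, and FGF and IGF signals control the proliferation and maturation of osteoblasts and chondrocytes. ERK signaling also switches on its own inhibitors, the sprouty and DUSP proteins, so that the transcripts of these inhibitors are widely read as a sign of pathway activity.

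RNA-Seq counts were available for 4 p53-driven tumors (genotype Col2.3-Cre/TrpP53fl/+) and 5 Myc-knockin tumors (Cre-Lox-Stop-Lox;(LSL)-c-MycT58A together with p53fl/+). Both groups carry a floxed Trp53 allele and a Cre driven by the Col2.3 promoter, which is active in osteoblasts. The Myc-knockin mice also carry a stabilized mutant form of c-Myc behind a stop cassette that Cre removes. Tumors arose in the mice themselves, the labels give no age, and the RNA holds the tumor cells and all other cells of the tissue. Nothing in the labels pairs a table column with a numbered sample, so the tumors go by their column names and count only as members of a group. For M351, M9 and M664 the group rests on the letter M alone. In all comparisons below, values are TMM-normalized counts scaled to CPM, tumors are given in the order F187, F325, F331 and F368 for p53 driven and M351, M408, M9, M624 and M664 for Myc knockin, and a negative log2 fold change is a lower level in Myc knockin.

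Myc itself was at 46.2, 43.5, 67.1 and 60.4 CPM in the p53-driven tumors and at 269.6, 520.3, 144, 1045 and 905 CPM in the Myc-knockin tumors, a log2 difference of 3.41 ± 0.59 (SE, edgeR adjusted p = 0.0217). Total counts ranged from 2716322 to 17073285, and the level that 3 counts give ranged from 0.114 to 2.39 CPM. The libraries were of unlike kinds. In F187, M351, M408 and M9, 12 predicted genes that carry satellite repeats took 23.2% to 81.0% of the counts, against at most 0.0242% in the other 5 tumors. M624 and M664 held 5.33 and 9.32 CPM of the small nuclear RNA Rn7sk, against at least 8858 CPM in the other tumors. Background counts, estimated from the rate on 1824 chemosensory receptor genes that bone is not known to use, came to 24.2% of the remaining counts in M9, 16.8% in M351 and 5.52% in F187, and at most 0.602% elsewhere. Both libraries with little Rn7sk are Myc knockin, and 1 of the 4 libraries with satellite reads is p53 driven. The comparisons are also given without M624 and M664 and without the 4 libraries with satellite reads.

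The promoters of 4 of these genes are shown, those of Pdgfra and Pdgfc because they encode a receptor and one of its ligands, that of Igf1r because it was the single gene with a positive difference, and that of Fgfr2 because it held the MYC-MAX recognition hexamer. Sequences are from RefSeq on GRCm38.p6, read 5′ to 3′ on the strand of the gene, and capitals mark CACGTG, the hexamer bound by MYC with MAX, or GGGCGG, the core of the GC box, on either strand.
Pdgfra, chr5:75152001-75152300, plus strand: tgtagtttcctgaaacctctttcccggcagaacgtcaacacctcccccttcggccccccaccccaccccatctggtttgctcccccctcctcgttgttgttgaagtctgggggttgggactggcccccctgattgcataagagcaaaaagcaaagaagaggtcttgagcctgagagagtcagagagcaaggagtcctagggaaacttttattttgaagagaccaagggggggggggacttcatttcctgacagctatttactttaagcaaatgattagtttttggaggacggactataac
Pdgfc, chr3:81036166-81036465, plus strand: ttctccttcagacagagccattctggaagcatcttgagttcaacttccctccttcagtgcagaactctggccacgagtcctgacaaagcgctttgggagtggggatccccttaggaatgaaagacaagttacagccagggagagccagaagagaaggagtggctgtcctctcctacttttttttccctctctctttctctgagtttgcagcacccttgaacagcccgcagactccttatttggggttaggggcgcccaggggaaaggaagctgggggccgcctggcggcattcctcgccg
Igf1r, chr7:67952007-67952306, plus strand: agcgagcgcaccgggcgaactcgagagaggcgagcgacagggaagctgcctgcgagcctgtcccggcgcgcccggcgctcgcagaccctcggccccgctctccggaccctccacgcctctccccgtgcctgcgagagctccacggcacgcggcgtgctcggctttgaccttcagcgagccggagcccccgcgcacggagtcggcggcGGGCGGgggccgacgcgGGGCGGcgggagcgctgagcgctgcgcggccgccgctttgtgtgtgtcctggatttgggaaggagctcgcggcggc
Fgfr2, chr7:130266759-130267058, minus strand: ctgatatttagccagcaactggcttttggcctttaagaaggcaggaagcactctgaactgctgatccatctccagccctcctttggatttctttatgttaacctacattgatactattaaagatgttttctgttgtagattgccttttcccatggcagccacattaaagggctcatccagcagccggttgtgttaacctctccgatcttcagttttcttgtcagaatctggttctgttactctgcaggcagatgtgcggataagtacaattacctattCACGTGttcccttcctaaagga

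RefSeq promoters were matched for 7 of the 10 genes, with 9 promoters in all, and none for Fgfr1, Pdgfb and Pdgfrb. Chromosome 18, which holds Pdgfrb, was left out of the match but not out of the shares of all promoters. CACGTG was found in the promoters of 1 of the 7 genes, Fgfr2, where it starts at position 29 downstream of the annotated start, and 7.15% of all 32851 mouse promoters of the same length hold it. GGGCGG was found for 3 genes, Fgfr3, Igf1r and Pdgfa, and in 35.7% of all promoters. TATAAA was found for 0 of the 7 genes and in 13.6% of all promoters. The Igf1r window lies upstream of the start that GENCODE gives for the gene, at base 67952827 of chromosome 7. The Fgfr2 window lies inside the gene as GENCODE draws it, far downstream of its outermost start at base 133123350.

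No member passed the test between the genotypes over all 9 tumors. In this fit the 5 PDGF genes had the most negative differences, with fitted levels 1.89-fold to 4.40-fold lower in Myc knockin, the 3 FGF receptors and Igf1 had smaller negative differences, and the fitted level of Igf1r was 2.16-fold higher. In edgeR's quasi-likelihood test, 0 of 10 members were called (adjusted p under 0.05 with over 1.5-fold change), against 5.27% of the 15365 genes tested. At an unadjusted p under 0.05 the count was 5 of 10, all of them PDGF genes, against 26.8% of all genes. The log2 fold change was below 0 for 9 of 10 members and for 43.8% of all genes. Levels overlapped between the genotypes for all 10 members, and 13.0% of all genes had levels that did not overlap. The median log2 fold change was -0.82 over the 10 members and -1.08 over the 5 PDGF genes, beside 0.14 over all genes tested. DESeq2 called 1 member, Pdgfc, and 18.6% of all genes, and limma-voom called 2, Pdgfrb and Pdgfa, and 10.8% of all genes.

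**Figure D1:**
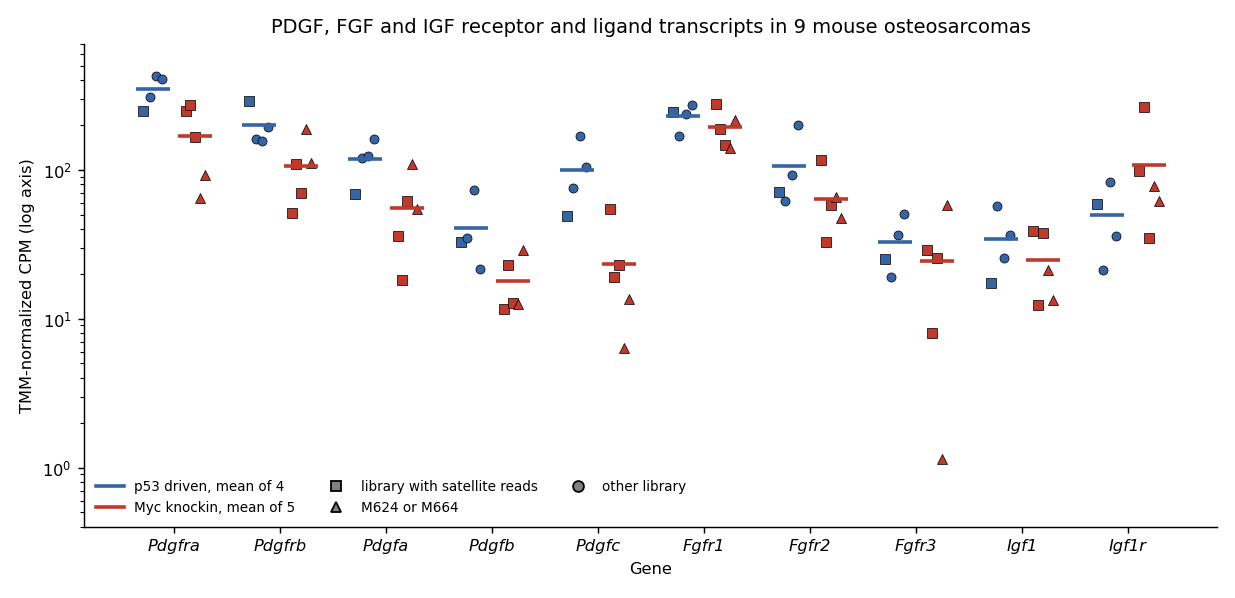
Level of each of the 10 genes in every tumor in TMM-normalized CPM on a log axis, with p53-driven tumors in blue and Myc-knockin tumors in red. Horizontal bars are group means, squares are libraries with satellite reads and triangles are M624 and M664. The groups overlap for every gene, M624 lies at 1.14 CPM for Fgfr3 and M408 lies at 265 CPM for Igf1r.

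The PDGF receptors are a pair of kinases with overlapping ligands. PDGF receptor alpha marks mesenchymal progenitors and PDGF receptor beta marks mural cells around vessels as well as stromal and osteogenic cells. Pdgfra (ENSMUSG00000029231, chr5:75152292-75198215, plus strand, mm10) was at 249.6, 309.7, 425 and 409 CPM in p53 driven and at 249.9, 273, 165, 64.5 and 91.8 CPM in Myc knockin. M9, M624 and M664 lay below every p53-driven tumor, with M624 and M664 the lowest, while M351 and M408 lay between F187 and F325. The log2 fold change was -1.05 ± 0.44 (SE; 95% interval -2.01 to -0.089, edgeR adjusted p = 0.153). Pdgfrb (ENSMUSG00000024620, chr18:61045150-61085061, plus strand) was at 291, 162, 157 and 195 CPM in p53 driven and at 51.1, 109.7, 69.3, 189 and 111 CPM in Myc knockin. The other 4 Myc-knockin tumors were below the lowest p53-driven tumor and M624 was within the p53-driven range. Pdgfrb had a log2 fold change of -0.92 ± 0.39 (SE; 95% interval -1.76 to -0.070, edgeR adjusted p = 0.157).

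Neither receptor passed the test over all tumors, and the size of both differences depended on which libraries were used. In the 7 tumors other than M624 and M664, Pdgfra had a log2 fold change of -0.54 (edgeR adjusted p = 0.312), and without the satellite libraries one of -2.27 (adjusted p = 0.0105). The latter fit sets F325, F331 and F368 against M624 and M664, the pair with little Rn7sk, so that genotype and kind of library cannot be told apart in it. Pdgfrb went the other way, with -1.32 (adjusted p = 0.0744) without M624 and M664 and -0.17 (adjusted p = 0.708) without the satellite libraries. Without M624 and M664, 0 members were called, where 4.61% of all genes were, and without the satellite libraries 2 members were called, Pdgfra and Pdgfc, where 27.9% of all genes were. With presence of satellite reads as a further term over 9 tumors, 1 member was called, Pdgfc, against 13.1% of all genes. Pdgfra had a log2 fold change of -1.56 (edgeR adjusted p = 0.0623) in that fit. The term puts M624 and M664 with F325, F331 and F368, so it does not separate genotype from the low Rn7sk of that pair. The difference in the effect of genotype between libraries with and without satellite reads had an edgeR adjusted p of 0.157 for Pdgfra and 0.234 for Pdgfrb. For this difference 72 of 15365 genes passed, and F187 is the only p53-driven library with satellite reads in it. Over 22 alternatives the adjusted p of Pdgfra ran from 0.0105 to 0.993 and that of Pdgfrb from 0.0149 to 0.992. Per kb of exon, the ratio of Pdgfra to Pdgfrb was 0.469 to 1.48 in p53 driven and 0.187 to 2.67 in Myc knockin, with the lowest value in M624 and the highest in M351.

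**Figure D2:**
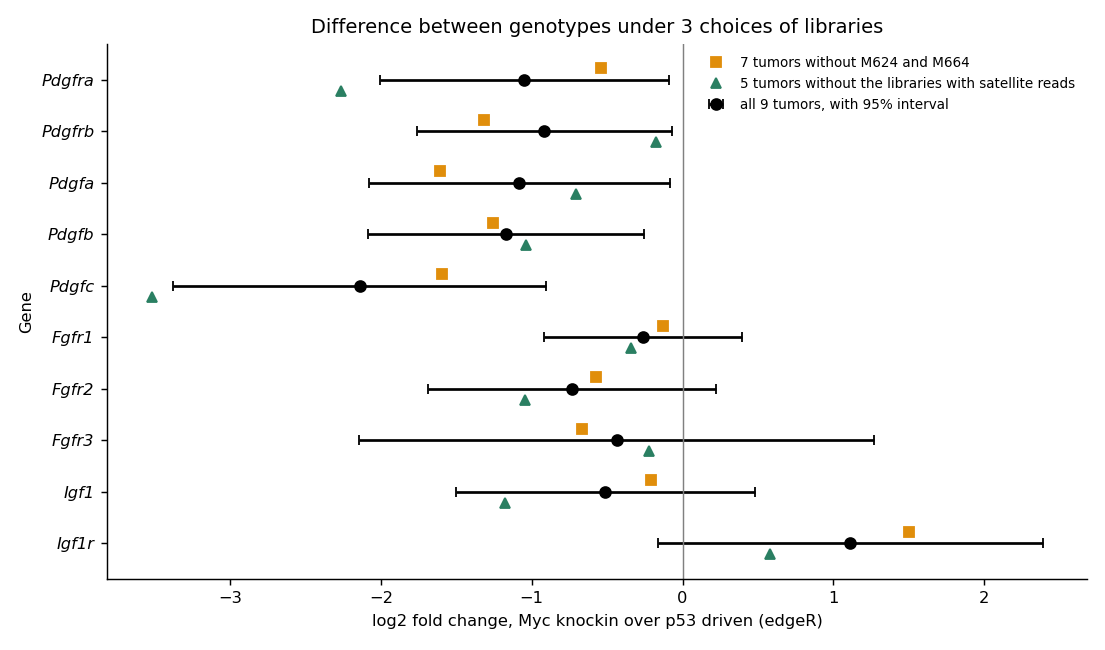
log2 fold change of Myc knockin over p53 driven for each gene, from edgeR. Black points with 95% intervals use all 9 tumors, orange squares leave out M624 and M664, and green triangles leave out the 4 libraries with satellite reads, where genotype and kind of library cannot be told apart. Pdgfra moves from -0.54 to -2.27 between the 2 smaller sets and Pdgfrb from -1.32 to -0.17, and no gene changes sign.

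PDGF ligands A, B and C had lower means in Myc knockin but did not pass the test. Pdgfc had the largest difference of the 10 genes in the 9-tumor edgeR fit, but not with limma-voom, where Pdgfrb was at -1.57 and Pdgfc at -1.54, nor without M624 and M664, where Pdgfa was at -1.61 and Pdgfc at -1.59, nor in the satellite libraries alone, where Pdgfrb was at -1.91 and Pdgfc at -0.67. PDGF-C is secreted with a CUB domain that proteases must cut before it can bind PDGF receptor alpha. Pdgfc (ENSMUSG00000028019, chr3:81036416-81214040, plus strand) was at 49.0, 75.4, 168 and 104 CPM in p53 driven and at 54.2, 19.0, 23.1, 6.36 and 13.6 CPM in Myc knockin. 4 of the 5 Myc-knockin tumors were below the lowest p53-driven tumor, and M351 was above F187 and below the other 3. The log2 fold change was -2.14 ± 0.56 (SE; 95% interval -3.37 to -0.90), a 4.40-fold lower level, with an edgeR adjusted p of 0.0510 that lies just past the threshold. Leaving out M351 gave -2.71 (adjusted p = 0.0367), leaving out F331 gave -1.76, and DESeq2 gave -2.10 (adjusted p = 0.00391). Over the 22 alternatives the adjusted p ran from 0.00391 to 0.992, and it was under 0.05 in 6. Background reads were estimated at 21.8% of the Pdgfc counts of M9, from 29 counts, and at most 6.49% in any other tumor. With this background subtracted the log2 fold change was -1.99 (adjusted p = 0.0582).

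PDGF-A and PDGF-B pair into the classical dimers, of which PDGF-A binds receptor alpha and PDGF-B binds both receptors. Pdgfa (ENSMUSG00000025856, chr5:138976014-138997370, minus strand) was at 68.3, 119.9, 123 and 162 CPM in p53 driven and at 35.7, 18.1, 61.3, 109 and 54.4 CPM in Myc knockin, with only M624 inside the p53-driven range. For Pdgfa the log2 fold change was -1.08 ± 0.46 (SE, edgeR adjusted p = 0.157). The gene shares 813 exon bases with 6330403L08Rik on the opposite strand. Pdgfb (ENSMUSG00000000489, chr15:79995874-80014977, minus strand) was at 32.8, 34.8, 73.3 and 21.4 CPM in p53 driven and at 11.7, 22.9, 12.7, 12.5 and 29.1 CPM in Myc knockin. M351, M9 and M624 were below all p53-driven tumors and F331 stood highest. Its log2 fold change was -1.17 ± 0.42 (SE, edgeR adjusted p = 0.106), and without F331 it was -0.71. Background reads were estimated at 32.3% of the 16 Pdgfb counts of M9 and at 24.6% of the 19 counts of M351. Pdgfd, the fourth ligand, which binds receptor beta, was at 34.3 to 53.7 CPM in p53 driven and at 7.39, 7.33, 47.8, 0.572 and 14.9 CPM in Myc knockin. M351, M408, M624 and M664 were below the p53-driven range, M9 was inside it, and the log2 fold change was -1.50 ± 0.82 (SE, edgeR adjusted p = 0.267).

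Make-up of the ligand family differed from tumor to tumor. Per kb of exon, Pdgfa held 38.8% to 57.2% of PDGF ligand transcripts in p53 driven and 33.4% to 88.8% in Myc knockin, where M624 was the highest. Pdgfb held 5.66% to 17.5% in p53 driven, and 31.7% in M408, 22.0% in M664, 10.3% in M351, 7.60% in M624 and 7.22% in M9, so that 2 Myc-knockin tumors were above the p53-driven range and 3 inside it. Pdgfc held 39.1% in M351 and 3.17% in M624, a range that contains the 17.05% to 32.6% of p53 driven. The proteases that release active ligands (tissue plasminogen activator, urokinase, furin and their relatives) had 0 of 7 genes called by edgeR, 0 by DESeq2, 0 by limma-voom and 0 at an unadjusted p under 0.05, and 4 of the 7 log2 fold changes were below 0.

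**Figure D3:**
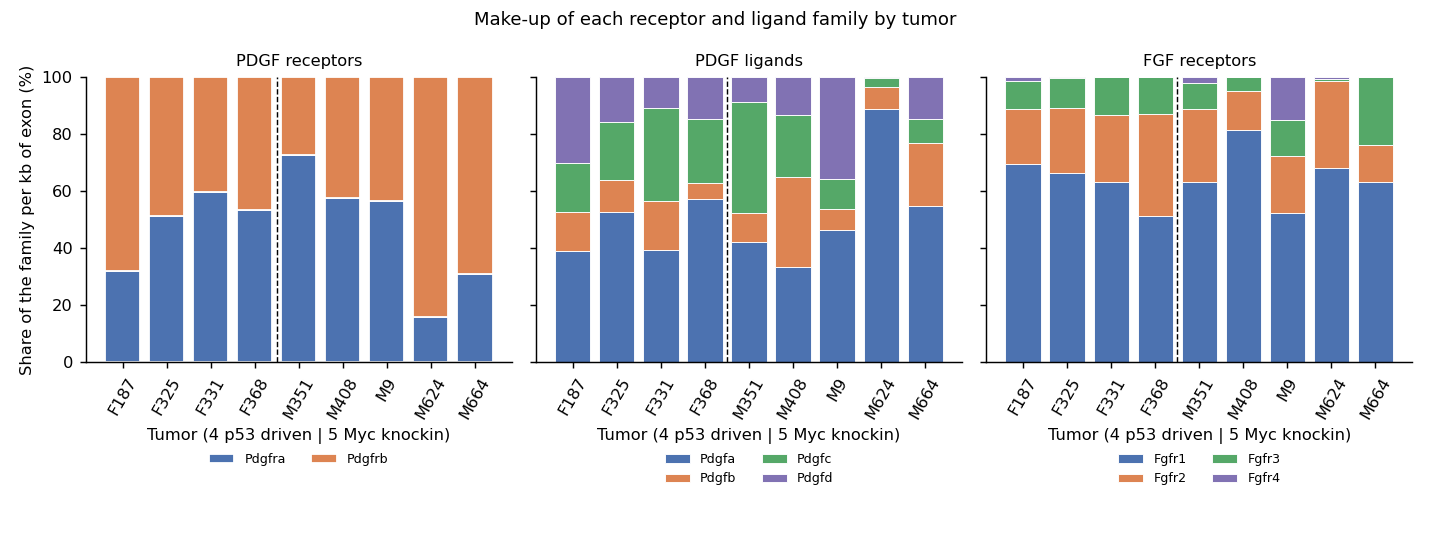
Share of each PDGF receptor, PDGF ligand and FGF receptor among the transcripts of its family per kb of exon, in percent, with one stacked bar per tumor and a dashed line between the 4 p53-driven and 5 Myc-knockin tumors. Fgfr1 is the largest part of the FGF receptors in every tumor, and Pdgfa reaches 88.8% of PDGF ligands in M624.

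Fgfr1 had the smallest difference of the 10 genes in the 9-tumor fit. Without the satellite libraries Pdgfrb (-0.17) and Fgfr3 (-0.22) were closer to 0 than Fgfr1 (-0.34). In the satellite libraries alone Fgfr2 (-0.11) and Pdgfra (-0.13) were closer than Fgfr1 (-0.29). Fgfr3 was also closer with the satellite covariate (-0.28 against -0.32) and without M624 (-0.046 against -0.10). The same held for Fgfr3 without F368 (-0.175 against -0.198) and without M408 (-0.18 against -0.23), and for Igf1 without F325 (-0.14 against -0.38). FGF receptor 1 is the main FGF receptor of bone and mesenchymal cells, receptor 2 is expressed in osteoprogenitors and receptor 3 restrains cartilage growth. Fgfr1 (ENSMUSG00000031565, chr8:25513654-25575718, plus strand) was at 244, 169.6, 238 and 274 CPM in p53 driven and at 277, 187.2, 147, 139 and 215 CPM in Myc knockin. The groups overlapped over most of their ranges. Its log2 fold change was -0.26 ± 0.30 (SE; 95% interval -0.92 to 0.39, edgeR adjusted p = 0.607), and over 22 alternatives it ran from -0.42 to -0.10. Per kb of exon, Fgfr1 made up 51.3% to 69.4% of FGF receptor transcripts in p53 driven and 52.4% to 81.4% in Myc knockin, the largest share in each of the 9 tumors.

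Fgfr2 (ENSMUSG00000030849, chr7:130162451-133123350, minus strand) was at 71.1, 61.4, 92.5 and 199 CPM in p53 driven and at 117, 33.0, 58.2, 65.2 and 47.4 CPM in Myc knockin. F368 stood highest and M408 lowest, and M351 and M624 were inside the p53-driven range. Between the genotypes the log2 fold change was -0.73 ± 0.44 (SE, edgeR adjusted p = 0.305), and -0.27 without F368. The annotated gene shares 314 exon bases with Ctbp2 on the same strand, so that some reads could belong to either gene. Fgfr3 (ENSMUSG00000054252, chr5:33721674-33737068, plus strand) was at 25.3, 19.0, 36.6 and 50.7 CPM in p53 driven and at 28.9, 8.06, 25.5, 1.14 and 58.2 CPM in Myc knockin. The highest and the lowest tumor were both Myc knockin and came from the 2 deepest libraries, M664 with 1347 counts and M624 with 30 counts. Its log2 fold change was -0.44 ± 0.78 (SE, edgeR adjusted p = 0.755), -1.09 without M664 and -0.046 without M624. Exons of Fgfr3 share 998 bases with G630022F23Rik on the opposite strand.

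FGF receptor 4 and the klotho coreceptors Kl and Klb were too low to be tested. Fgfrl1, a receptor without a kinase domain, was at 9.69 to 23.1 CPM in p53 driven and 9.85 to 41.9 CPM in Myc knockin. Of 22 genes of the FGF family 6 were tested, and 0 were called by edgeR, DESeq2 or limma-voom, with 1 at an unadjusted p under 0.05. Fgf1 had a log2 fold change of -1.32, Fgf2 of -0.14, Fgf7 of -0.23, Fgf11 of 0.12, Fgf13 of 1.88 and Fgf6 of 3.76, and the levels of all 6 overlapped between the genotypes. Fgf6, known from skeletal muscle, reached 29.9 CPM in M408, where the 8 skeletal muscle markers summed to 1803 CPM. In F325, where these markers summed to 4826 CPM, Fgf6 was at no more than 0.467 CPM. The part of muscle tissue in the level of Fgf6 was not tested. The signs of the Fgf2, Fgf6, Fgf7 and Fgf11 differences reversed in some settings. The other 16 genes of the FGF family had at most 74 counts in any tumor.

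Igf1r was the only member with a higher mean in Myc knockin, and a single tumor carried much of the difference. The IGF1 receptor binds IGF1 and IGF2, is closely related to the insulin receptor and signals mainly through IRS proteins and PI3K. Igf1r (ENSMUSG00000005533, chr7:67952827-68233668, plus strand) was at 59.2, 21.2, 83.3 and 35.9 CPM in p53 driven and at 97.9, 265, 35.1, 77.8 and 61.9 CPM in Myc knockin. M408 and M351 lay above all p53-driven tumors and the other 3 inside their range. The log2 fold change was 1.11 ± 0.58 (SE; 95% interval -0.16 to 2.39, edgeR adjusted p = 0.244), and without M408 it was 0.48. Background reads were estimated at 47.5% of the 44 Igf1r counts of M9, and at 0.177% of those of M408. Per kb of exon, the ratio of Igf1r to the insulin receptor Insr was 0.664, 0.344, 0.877 and 0.314 in p53 driven and 1.09, 2.17, 0.383, 1.30 and 1.22 in Myc knockin. M351, M408, M624 and M664 were above all p53-driven tumors in this ratio and M9 was inside their range, and the ratio was not tested. Insr itself was at 50.3 to 93.6 CPM in p53 driven and 41.7 to 99.8 CPM in Myc knockin.

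Igf1 (ENSMUSG00000020053, chr10:87858265-87937042, plus strand), the ligand made by stromal cells, osteoblasts and macrophages, was at 17.4, 57.1, 25.5 and 36.6 CPM in p53 driven and at 38.8, 12.3, 37.4, 21.3 and 13.3 CPM in Myc knockin. M408 and M664 were below the p53-driven range and the other 3 were inside it. The log2 fold change was -0.51 ± 0.45 (SE; 95% interval -1.50 to 0.48, edgeR adjusted p = 0.499), and background reads were estimated at 26.2% of its counts in M9. Igf2, the fetal growth factor, was at 357 CPM in M624, from 9377 counts, and at 0.365 to 7.17 CPM in the other 8 tumors. Its log2 fold change of 6.50 (edgeR adjusted p = 0.0682) rests on M624, and without M624 the gene was too low to be tested. Igf2r, which carries IGF2 to lysosomes and does not signal as a kinase, was at 267, 486, 390 and 278 CPM in p53 driven and at 149.6, 206, 121, 189 and 137 CPM in Myc knockin. All 5 Myc-knockin tumors were below all p53-driven tumors, with a log2 fold change of -1.14 ± 0.30 (SE) and an edgeR adjusted p of 0.0522, which ran from 0.00170 to 0.992 over 22 alternatives.

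IGF binding proteins hold IGFs in the tissue and control their access to the receptor, and among them and their proteases 0 of 10 tested genes were called by edgeR, with 4 at an unadjusted p under 0.05, 3 called by DESeq2 and 2 by limma-voom. Igfbp2 was at 0.243 to 2.37 CPM in p53 driven and at 6.77, 2.75, 3.19, 185 and 17.6 CPM in Myc knockin, with no overlap. Its log2 fold change was 5.59 (edgeR adjusted p = 0.0510), and 3.08 without M624, the same tumor that was high for Igf2. Background reads were estimated at 57.4% of the Igfbp2 counts of M9. Igfbp5, a binding protein made by osteoblasts, was at 1330.3, 236, 620.3 and 1514 CPM in p53 driven and 203 to 369 CPM in Myc knockin, with a log2 fold change of -1.78 ± 0.50 (SE, edgeR adjusted p = 0.0594).

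Compared with each other per kb of exon, the members stood in a different order in each genotype. In p53 driven the means ran from Pdgfa at 38.0 ± 12.3, Pdgfrb at 36.7 ± 11.4 and Pdgfra at 34.8 ± 8.32 to Igf1 at 3.45 ± 1.74 and Igf1r at 2.97 ± 1.62 CPM per kb (SD, n = 4). In Myc knockin they ran from Fgfr1 at 19.5 ± 5.69, Pdgfrb at 19.4 ± 9.69, Pdgfa at 17.9 ± 11.02 and Pdgfra at 16.8 ± 9.24 to Igf1 at 2.49 ± 1.29 CPM per kb (SD, n = 5). Igf1r was last in p53 driven and ranked 5 of 10 in Myc knockin, with a mean of 6.40 ± 5.41 CPM per kb, but without M408 it ranked 7 with 4.06 ± 1.58 CPM per kb (SD, n = 4), and it was above the next gene, Fgfr2, in 1 of 5 tumors. For most neighbors in these orders, the mean log2 difference did not exceed its SD between the tumors of the group. The exceptions were Pdgfra over Fgfr1 and Pdgfc over Fgfr2 in p53 driven, and Pdgfra over Igf1r in Myc knockin, each in all tumors of the group.

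Downstream of the receptors, 2 genes, Sos1 and Pik3cb, fell in Myc knockin in the 9-tumor edgeR fit. Of 98 pathway genes, members included, 76 were tested, and the 2 called are 2.63% of them, beside 5.27% of all genes. In all 24, or 31.6%, had an unadjusted p under 0.05, beside 26.8% of all genes, and the median log2 fold change was -0.26. Pathway genes called higher numbered 0 in this fit and 0 to 3 under the alternatives, with 1 of 2 with upper-quartile scaling and 3 of 12 with DESeq2. Sos1, an exchange factor that loads RAS with GTP, was at 109, 142, 121 and 157 CPM in p53 driven and at 49.9, 76.9, 73.3, 46.3 and 28.2 CPM in Myc knockin, and fell by 1.27 on the log2 scale (edgeR adjusted p = 0.0441). Pik3cb, a catalytic subunit of PI3K, was at 50.2, 36.3, 91.4 and 24.7 CPM in p53 driven and at 19.1, 15.9, 16.7, 6.55 and 12.5 CPM in Myc knockin, and fell by 1.87 (edgeR adjusted p = 0.0365). Neither gene overlapped between the genotypes, but without M624 and M664 the adjusted p was 0.0761 for Sos1 and 0.0835 for Pik3cb. The adjusted p over 22 alternatives ran from 0.00384 to 0.992 for Sos1 and from 0.00175 to 0.990 for Pik3cb, and was under 0.05 in 10 of them for each gene. Both calls were lost when any one of F187, F325, F331, F368, M351, M624 and M664 was left out, with adjusted p up to 0.154 for Sos1 and 0.127 for Pik3cb, and held without M408 or without M9.

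The adaptors and proximal signaling genes had 17 of 22 log2 fold changes below 0, with a median of -0.51, and Sos1 and Pik3cb were the 2 called. A further 3 adaptor genes, named after their values were seen, did not overlap between the genotypes. Irs1, the main substrate of the IGF1 receptor, was at 115, 154, 190.5 and 239 CPM in p53 driven and at 96.0, 57.3, 108, 19.0 and 21.2 CPM in Myc knockin, with a log2 fold change of -1.55 ± 0.52 (SE, edgeR adjusted p = 0.0922). Shc1, which links receptors to RAS, had a log2 fold change of -0.95 (adjusted p = 0.1002), and Pik3ca, the other broadly expressed PI3K catalytic subunit, one of -1.14 (adjusted p = 0.0622). In all, 7 of the 66 tested pathway genes that are not members did not overlap, 10.6% beside 13.0% of all genes. Sos2 had a log2 fold change of 0.013 and Irs2 of 0.53.

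**Figure D4:**
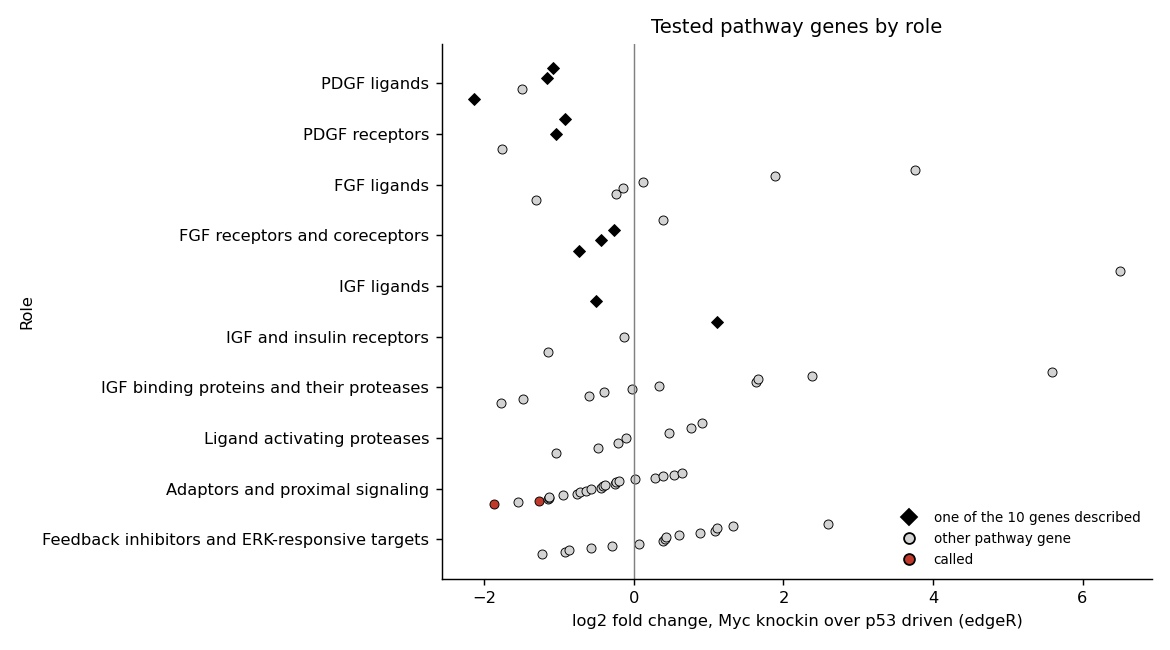
log2 fold change of Myc knockin over p53 driven for each tested pathway gene, in rows by role, from edgeR. Black diamonds are the 10 genes described, grey circles are other genes and red circles are called genes, which are Sos1 and Pik3cb, and the point at 6.50 is Igf2.

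The Myc-knockin tumor M408 stood apart in the feedback inhibitors and ERK-responsive targets, a pattern that was seen in the values and was not tested. Of 15 tested genes in this list 12 had their highest level of all 9 tumors in M408, while M408 was the highest tumor for 9.42% of all genes tested. This is the tumor with the highest Igf1r. Dusp6, the phosphatase that inactivates ERK, was at 58.1, 41.8, 66.9 and 53.4 CPM in p53 driven and at 22.8, 272, 29.5, 5.91 and 28.9 CPM in Myc knockin. The other 4 Myc-knockin tumors were all below the p53-driven tumors and M408 was far above them. Egr1, an immediate early transcription factor, was at 198 CPM in M408, 26.5 to 28.3 CPM in the 4 others of its genotype and 25.3 to 60.8 CPM in p53 driven. Spry4, a sprouty inhibitor of receptor signaling, was at 90.1 CPM in M408, 6.21 to 15.9 CPM in those 4 and 15.4 to 28.0 CPM in p53 driven.

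The same held for Spry2 at 47.3 CPM in M408 and at most 14.6 CPM elsewhere, for Errfi1, an inhibitor of EGF receptor signaling, at 261 CPM and at most 60.9 CPM elsewhere, and for Etv4, an ERK-responsive ETS factor, at 38.8 CPM and at most 10.3 CPM elsewhere. Dusp5 was at 46.5 CPM in M408 and at most 8.12 CPM elsewhere. The 3 tested genes of the list whose highest tumor was not M408 were Spred1 and Dusp4, highest in F331, and Etv5, highest in F368. Outside the list Plau, the urokinase gene, was at 234 CPM in M408 and at most 47.7 CPM elsewhere. No gene of the list was called between the genotypes (0 of 15 by edgeR, 2 by DESeq2, 1 by limma-voom, and 3 at an unadjusted p under 0.05), and the sign of single genes followed M408, with a log2 fold change of 0.39 for Dusp6 over all tumors and -1.34 without M408, and of 0.42 and -0.73 for Egr1. M408 also had 23.2% satellite reads and the second highest sum of skeletal muscle markers of the 9 tumors. The part of either in these levels was not tested.

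**Figure D5:**
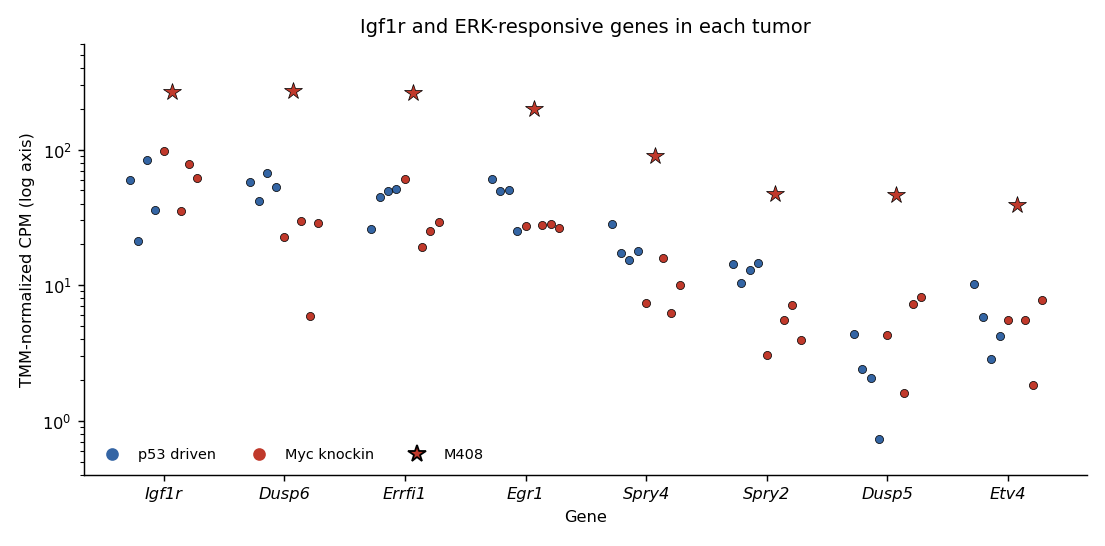
Levels of Igf1r and 7 ERK-responsive genes in each tumor in TMM-normalized CPM on a log axis, with p53-driven tumors in blue, Myc-knockin tumors in red and M408 as a star. M408 is the highest tumor for all 8 genes, at 265 CPM for Igf1r and 272 CPM for Dusp6.

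The tumors also differed in markers of the cell types that express these genes, and, since the RNA comes from whole tumors, fewer cells of a type and less RNA per cell cannot be told apart. In what follows, called means by edgeR over all 9 tumors, where 5.27% of all genes were called. The 12 osteoblast markers were present in every group. They summed to 66205 to 141847 CPM in p53 driven and 3622 to 41579 CPM in Myc knockin. Of them 12 had a log2 fold change below 0 and 2 were called lower. Neither Col1a1 nor Col1a2, the most abundant, was called (edgeR adjusted p = 0.0682 and 0.0817). The 10 fibroblast markers summed to 750 to 2252 CPM against 58.6 to 330.5 CPM, with 8 of 9 tested below 0 and 3 called lower. Osteoclast markers summed to 2716 to 14151 CPM against 124 to 2570 CPM, with 8 of 8 below 0 and 6 called lower. Macrophage markers summed to 756 to 1330 CPM against 249.5 to 860.4 CPM, with 7 of 10 below 0 and 3 called lower. General leukocyte markers summed to 415 to 803 CPM against 124 to 341 CPM, with 5 of 6 below 0 and 1 called lower.

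For the other 5 types no marker was called by edgeR, with 6 at an unadjusted p under 0.05 and 3 called by DESeq2 and 3 by limma-voom. Mural cell markers, of the cells that carry PDGF receptor beta, summed to 539 to 1110 CPM in p53 driven and 332 to 670 CPM in Myc knockin. These sums include Des, at 310 CPM in F325 and 384 CPM in M408. Each is the tumor of its group with the highest mural sum and the highest muscle sum, and the part of muscle was not tested. Endothelial markers, of the cells that secrete PDGF-B, summed to 375 to 527 CPM and 118 to 609 CPM. Chondrocyte markers summed to 677 to 4179 CPM and 206 to 487 CPM, with 5 of 9 tested below 0 and 4 above. These sums include Col2a1, at 2566 CPM in F331, and Col11a2, at 573 to 1530 CPM in p53 driven. Muscle markers summed to 13.4 to 4826 CPM and 2.67 to 1803 CPM, and red cell markers to 3.55 to 14.2 CPM and 7.17 to 783 CPM. Of the 6 red cell markers 1 was tested. Hba-a1 had 2684 counts in M624 and 8995 in M664, the pair with little Rn7sk, and 0 in every other tumor. The part of the kind of library in the red cell sums was not tested. M624 was lowest for Pdgfra, Pdgfc, Fgfr1 and Fgfr3, for the osteoblast, fibroblast, endothelial, macrophage, leukocyte and skeletal muscle sums, and for 20.4% of all genes tested. No marker was at 0 in all 9 tumors. The part of these cell types in the differences of the PDGF, FGF and IGF genes was not tested.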

How the data were processed

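The study describes oligo-dT-enriched stranded libraries of whole tumors, here 4 p53 driven and 5 Myc knockin. Rn7sk and satellite reads differed widely between the libraries, as given above, and whether all libraries were prepared alike was not tested. The authors trimmed reads with Trim Galore, aligned the trimmed reads to mm10 with STAR, summed reads by gene in featureCounts and deposited the raw counts of 55367 genes. The strand setting and the handling of multiply mapped reads are not given in the sources used here. The table holds 9 columns of counts, no normalized values and no column that could not be placed in a group.

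Counts were tested in R 4.3.3 with edgeR 4.0.16 (TMM, filterByExpr with a minimum count of 10, glmQLFit and glmQLFTest over all 9 tumors) and adjusted by the Benjamini-Hochberg method over the 15365 genes kept, and called genes had adjusted p under 0.05 with over 1.5-fold change. Means are given with the SD, fold changes with the SE from edgeR, and p-values measure the spread between these tumors. CPM values are TMM normalized, and values per kb were divided by the exon length in GENCODE, which held 55111 of the genes. Satellite-repeat genes were the 12 with over 20 times the CPM in each of 4 libraries as in any other. Background counts were estimated per kb of exon from 1824 chemosensory receptor genes. The level of 3 counts, from 0.114 to 2.39 CPM, covers counting error only.

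Alternatives were DESeq2 1.42.0, limma 3.58.1 (voom with quality weights), other scalings and filters, background subtraction and fits without libraries. The fit with satellite reads as a covariate and the fit of the 4 satellite libraries alone were chosen after seeing the data. The scripts were tested on simulated data. Genes named are the 10 members, pathway genes called, the ligands and receptors that pair with members, and the FGF family genes tested. Other genes were named after their values were seen. The members and lists were chosen with earlier results of these data known.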

Additional observations from a re-analysis of the deposited data

Results flagged for a closer look

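Among 72 groups checked (36 genes in 2 genotypes), 14 had a tumor far from the others of its genotype by Dixon's test, which flags about 1 in 20 groups by chance. In M408 the level of Igf1r was 265 CPM, while the other tumors of the genotype had 35.1 to 97.9 CPM. The same tumor was flagged for Dusp6 (272 CPM against 5.91 to 29.5), Egr1 (198 CPM against 26.5 to 28.3), Spry4 (90.1 CPM against 6.21 to 15.9) and Spry2 (47.3 CPM against 3.08 to 7.16). It was also flagged for Errfi1 (261 CPM against 19.1 to 60.9), Etv4 (38.8 CPM against 1.83 to 7.73), Dusp5 (46.5 CPM against 1.59 to 8.12) and Plau (234 CPM against 13.3 to 21.9). These genes were chosen after their values were seen, so their number is no measure of chance.

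In M624, Igf2 was at 357 CPM against 0.616 to 7.17 CPM in the 4 others, and Igfbp2 was at 185 CPM against 2.75 to 17.6 CPM. Grb10 in M9 was at 29.5 CPM against 308 to 363 CPM. Among the p53-driven tumors, Fgf6 in F187 was at 2.76 CPM against 0 to 0.467 CPM, and Fgf7 in F325 was at 4.2 CPM against 6.57 to 6.81 CPM.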

How the results depend on the processing

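No paired analysis was possible because the table's columns carry no replicate numbers. Genes called numbered 809 (348 higher, 461 lower in Myc knockin) over all tumors. They numbered 971 with upper-quartile scaling (626 higher), 1131 with background subtracted (620 higher), 136 with library size alone (50 higher), 494 with all genes of at least 1 count (218 higher), 1316 with at least 10 counts in every tumor (785 higher), 2670 with DESeq2 (1549 higher), 1663 with limma-voom (663 higher), 4595 without the satellite libraries (2594 higher), 2016 with the satellite covariate (1208 higher) and 0 in the satellite libraries alone, and 5 to 1588 when one tumor was left out, with 5 without F368, 6 without F331, 8 without F325 and 1588 without M9. Lower calls were the more numerous in the first of these, with library size alone, with all genes of at least 1 count and with limma-voom. Higher calls were the more numerous with upper-quartile scaling, background subtracted, at least 10 counts in every tumor, DESeq2 and the covariate. Higher calls also led without the satellite libraries and without M9. Members called moved from 0 to 1 with all genes of at least 1 count, with at least 10 counts in every tumor, with DESeq2 and with the satellite covariate, to 2 with limma-voom (Pdgfrb and Pdgfa) and without the satellite libraries, and to 0 to 1 with one tumor left out. Pathway genes called moved from 2 (0 higher) to 0 with library size alone and in the satellite libraries alone, 4 with all genes of at least 1 count (2 higher), 5 with at least 10 counts in every tumor (0 higher), 12 with DESeq2 (3 higher), 12 with limma-voom (0 higher), 4 with background subtracted (1 higher), 17 without the satellite libraries (3 higher), 10 with the covariate (2 higher), stayed at 2 with upper-quartile scaling and without M624 and M664 (1 higher in each), and ran from 0 to 8 with one tumor left out, with 8 without M408 (2 higher) and 0 without any one of F187, F325, F331, F368, M624 and M664. The cause was not tested.

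For the 10 members, 220 log2 fold changes over 22 settings included 210 of the same sign and side of the threshold, 9 that passed it and 1 that reversed, Igf1 at 0.66 in the satellite libraries alone. Reversals also occurred for Fgf2 (0.038 with upper-quartile scaling, 0.48 without M624 and M664, 0.47 in the satellite libraries alone, and -0.40 to 0.15 with one tumor left out, positive without M624 or M664), for Fgf7 (0.018, 0.55, 0.30, and -0.83 to 0.13 under the same settings), for Insr (0.049 with limma-voom, 0.23 without M624 and M664, 0.17 in the satellite libraries alone, and 0.035 without M624 and 0.035 without M664) and for Fgf6 (-0.77 with the covariate). Fgf11 reversed to -0.24 with library size alone, -0.017 with all genes of at least 1 count, -0.36 with limma-voom, -0.39 with background subtracted, -0.29 without the satellite libraries, -0.22 with the covariate, and ran from -0.45 to 0.46 with one tumor left out, negative without M9 or F368.

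The median log2 fold change of all genes was 0.14 with TMM, 0.24 with upper-quartile scaling and 0.027 with library size alone, and no member changed sign under these scalings. In M9 and M351 the depth left 16 and 19 counts for Pdgfb, so that small differences in this gene were not detectable there.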

Other observations

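Grb10, an imprinted adaptor that binds the IGF1 and insulin receptors and restrains their signaling, fell into 2 widely separated levels that did not follow the genotype. It was at 405, 520.4, 37.0 and 683 CPM in p53 driven and at 363, 347, 29.5, 328 and 308 CPM in Myc knockin, in the order of tumors used above. F331 and M9 were thus the low tumors, one in each genotype, and background reads were estimated at 30.5% of the Grb10 counts of M9. The gene was named after its values were seen, its log2 fold change was -0.58 ± 0.76 (SE), and its edgeR adjusted p was 0.659.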
